A study of Homo sapiens with 6 samples.

Results

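Histone acetyltransferases transfer the acetyl group of acetyl-CoA to lysines of histones and of many other nuclear proteins. The 10 human genes described here were taken by name from 38100 genes in the count table: HAT1, EP300, CREBBP, KAT2A, KAT2B, KAT5, KAT6A, KAT6B, KAT7 and KAT8. The study asked how SIRT4, a sirtuin, acts in kidney fibrosis, in mice and in cultured cells. Among its experiments it tested several acetyltransferases on the splicing factor U2AF2. One part of the study was RNA-seq of kidney tubule cells under a fibrotic stimulus, for changes in gene expression and splicing. Its RNA-seq used HK2 cells, an established line of human proximal tubular epithelial cells labelled as wild type. Both groups of 3 samples received TGF-β1, the cytokine that drives tubular fibrosis. The AdCtrl+TGF group carried an adenovirus with an empty vector, and the AdSirt4+TGF group carried an adenovirus for SIRT4, so no sample lacked virus or TGF-β1. The study describes replicates of cultured cells as technical; where these samples are of that kind, the SDs and p-values measure only the spread between them. The cell-line labels carry a different number in each sample, while all titles name HK2, and all were taken as HK2.

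The proteins fall into families with distinct roles. HAT1 is the type B enzyme: with its partner RBBP7 or RBBP4 it acetylates newly made histone H4 before the histone is placed on DNA. EP300 and CREBBP encode p300 and CBP, paralogous co-activators that bind many transcription factors and acetylate H3 at enhancers and promoters. KAT2A (GCN5) and KAT2B (PCAF) are the alternative catalytic subunits of the SAGA and ATAC complexes. The MYST family contains KAT5 (TIP60, in NuA4), KAT6A (MOZ), KAT6B (MORF), KAT7 (HBO1, linked to replication origins) and KAT8 (MOF, the H4K16 acetyltransferase of the MSL and NSL complexes).

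HAT1 lies on chromosome 2 at 171922461 to 171983686, EP300 on chromosome 22 at 41092592 to 41180077, CREBBP on chromosome 16 at 3725054 to 3880713, KAT2A on chromosome 17 at 42113111 to 42121367 and KAT2B on chromosome 3 at 20040446 to 20154404. KAT5 lies on chromosome 11 at 65712018 to 65719604, KAT6B on chromosome 10 at 74824936 to 75032624, KAT7 on chromosome 17 at 49788681 to 49835026 and KAT8 on chromosome 16 at 31117664 to 31131393. Positions are those of RefSeq on GRCh38.p14. The submitters' processing notes name hg38, and the values are per gene rather than per position.

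HAT1 is the member that leads the description below, and the 80 bases before its annotated start are shown for the place from which its transcripts begin. They are the plus strand of chr2:171922381-171922460 (RefSeq, GRCh38.p14), upstream of the first HAT1 exon, and their first 9 bases also lie in the lncRNA LOC105373740. Capitals mark CTTCCGG, the reverse complement of the ETS-factor core CCGGAAG.
HAT1: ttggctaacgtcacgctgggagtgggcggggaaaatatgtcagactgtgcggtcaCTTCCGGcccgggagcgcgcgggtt
That core, read on both strands, was present in the 250 bases upstream of 8.52% of 35116 RefSeq promoters and in those of 3 of the 8 members in the table, HAT1, KAT5 and KAT7. Other motifs were also looked for in these 250 bases. The GC box GGGCGG was present in 42.6% of the promoters and in 4 of the 8 members. The CCAAT box was present in 32.0% and in 2 of the 8, and HAT1 held both. The matches describe the letters of these windows and were not related to expression here.

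Levels below are in CPM, counts scaled to a common depth and library composition, and a gene is called where its adjusted p is under 0.05. The samples held 53677241, 42102861 and 50190728 counts in AdCtrl+TGF and 41537353, 85684748 and 80040053 counts in AdSirt4+TGF. Without AdSirt4+TGF replicate 1, every remaining AdSirt4+TGF sample was deeper than every control. Depth and group then go together, and the part of depth in those fits was not tested. One library stood apart. Between replicates, the chi-square per gene was 10.1 to 25.1 for the pairs without AdSirt4+TGF replicate 1 and 186 and 233 for the pairs with it. In this library short genes were high and long genes were low: over 10 groups of genes by length, the median log2 difference from AdSirt4+TGF replicates 2 and 3 went from 0.67 in the shortest group to -0.74 in the longest. Results are therefore given with this library and without it. The Spearman correlation of length with log2 CPM, centred on the mean over the 6 samples, was -0.565 in this library. It was 0.357 and 0.429 in AdSirt4+TGF replicates 2 and 3, and 0.0971, 0.203 and 0.287 in the AdCtrl+TGF samples. Centred values sum to 0 over the samples, so part of the positive correlations is built in. AdSirt4+TGF replicates 2 and 3 were above all controls, so fits without this library were not free of a length trend. SIRT4, the overexpressed gene, was at 0.573, 1.11 and 1.11 CPM in the AdCtrl+TGF samples and 51.2, 92.7 and 84.0 CPM in the AdSirt4+TGF samples, a log2 difference of 6.36 (95% interval 5.52 to 7.21, adjusted p = 0.00801). SIRT4 was no longer called without AdCtrl+TGF replicate 1, 2 or 3 (adjusted p = 0.0559, 0.203 and 0.186), while its adjusted p was 5.56e-07 without AdSirt4+TGF replicate 1. Of 12 proximal tubule markers only GGT1 and PAX8 were at 10 CPM or more in all samples, and the other 10, LRP2, CUBN and AQP1 among them, stayed under 3 CPM, with no count of SLC22A8. Summed over the 12 markers, the level was 447 to 499 CPM in the AdCtrl+TGF samples and 421 to 484 CPM in the AdSirt4+TGF samples. Of 5 epithelial markers KRT8, KRT18, KRT19 and EPCAM passed 10 CPM and CDH1 did not, with sums of 1322 to 1358 CPM in AdCtrl+TGF and 1221 to 1850 CPM in AdSirt4+TGF. All 9 markers of leukocytes, endothelium, podocytes, distal nephron and liver were under 3 CPM, with sums of 1.11 to 1.48 and 1.37 to 1.45 CPM in the 2 groups.

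All 10 acetyltransferase genes were expressed and passed the filter on low counts. Length-scaled levels, given as FPKM (fragments scaled by gene length and by depth), put HAT1 far above the others: 57.7, 53.0 and 56.2 FPKM in the AdCtrl+TGF samples and 81.4, 55.9 and 51.7 FPKM in the AdSirt4+TGF samples. KAT8 came next at 19.1, 17.6 and 19.7 FPKM in the AdCtrl+TGF samples and 19.2, 16.3 and 17.1 FPKM in the AdSirt4+TGF samples. EP300 came after KAT8 in all samples but AdSirt4+TGF replicate 1, at 12.03, 11.9 and 12.4 FPKM in the AdCtrl+TGF samples and 3.26, 12.9 and 13.5 FPKM in the AdSirt4+TGF samples. KAT2A and KAT5 followed with AdCtrl+TGF ranges that overlapped, 9.49 to 11.0 and 9.18 to 10.3 FPKM, and then CREBBP with 7.69 to 7.94 FPKM. KAT6A and KAT7 also overlapped, at 4.08 to 4.53 and 3.93 to 4.37 FPKM, above KAT6B at 3.06 to 3.34 FPKM and KAT2B at 2.77 to 2.99 FPKM. All other neighbours in this order were apart in the AdCtrl+TGF samples, with the closest pair being KAT6B and KAT2B. A message level is not an enzyme amount. Bulk RNA cannot tell fewer cells with a message from less of that message per cell.

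**Figure D1:**
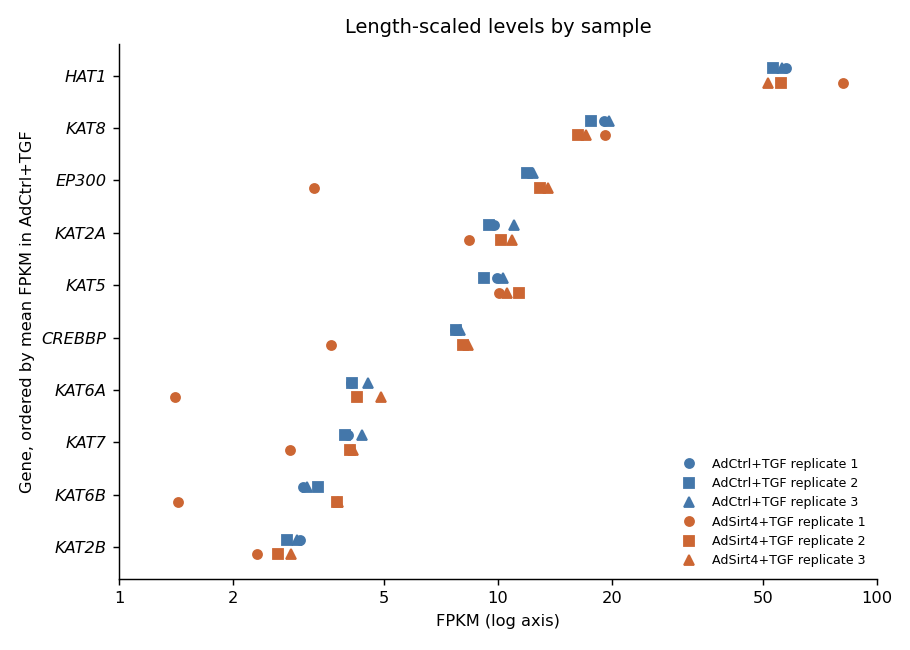
FPKM (log axis) of the 10 acetyltransferase genes, ordered by their mean in AdCtrl+TGF; blue symbols are AdCtrl+TGF samples and orange symbols AdSirt4+TGF samples, 3 of each. HAT1 lies between 51.7 and 81.4 FPKM and KAT2B between 2.30 and 2.99 FPKM, and the circle of AdSirt4+TGF replicate 1 is right of the other samples for HAT1 and left of them for EP300, CREBBP, KAT2A, KAT2B, KAT6A, KAT6B and KAT7.

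HAT1 made up 44.3%, 43.1% and 42.4% of the summed FPKM of the 10 genes in AdCtrl+TGF replicates 1, 2 and 3, and 60.8%, 43.2% and 40.4% in AdSirt4+TGF replicates 1, 2 and 3. The ratio of HAT1 to EP300 FPKM was 4.79, 4.45 and 4.55 in AdCtrl+TGF and 25.0, 4.32 and 3.82 in AdSirt4+TGF. The high share and the high ratio were both those of AdSirt4+TGF replicate 1. Replicates 2 and 3 of that group had a HAT1 to EP300 ratio below every AdCtrl+TGF sample.

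Under SIRT4 overexpression, no acetyltransferase gene passed an adjusted p of 0.05. The edgeR quasi-likelihood test over 17720 genes called 0 of the 10 members, against 2 genes in all, which is 0.0113% of those tested. The 2 were SIRT4 and ADAMTS1, a secreted metalloprotease named here after its values were seen, which was at 39.1 ± 1.26 and 79.5 ± 1.44 CPM (mean ± SD, n = 3 each, adjusted p = 0.0395). With the replicate block, SIRT4 alone was called (1 gene, adjusted p = 0.000313), and ADAMTS1 was not (adjusted p = 0.303). Nor was ADAMTS1 called when AdCtrl+TGF replicate 1, 2 or 3 or AdSirt4+TGF replicate 2 or 3 was left out, with adjusted p between 0.194 and 0.930. At an unadjusted p under 0.05 the test again took 0 members, against 7.93% of all genes. DESeq2 called 119 genes and none of the 10. Groups did not overlap for 2 members, KAT5 and KAT2B, where 19.4% of all genes had groups that did not overlap. These counts are in CPM, and in FPKM the groups of both genes overlapped.

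Without AdSirt4+TGF replicate 1 the test called 1227 of 18287 genes (6.71%) and still 0 members. At an unadjusted p under 0.05 it took 4 members, KAT6B, KAT8, EP300 and KAT5, against 24.3% of all genes. Groups did not overlap for 6 members, EP300, CREBBP, KAT5 and KAT6B higher and KAT2B and KAT8 lower in AdSirt4+TGF, against 41.5% of all genes. In FPKM the groups of KAT2B overlapped here too, and those of the other 5 did not. A length trend remained in this fit. With that trend removed as well, the log2 fold change went from 0.12 to 0.066 for EP300 and from 0.059 to -0.0081 for CREBBP. It went from 0.16 to 0.20 for KAT5 and from 0.24 to 0.20 for KAT6B. For KAT2B it went from -0.10 to -0.11, and for KAT8 from -0.18 to -0.12. Leaving out any other single library called 0 or 1 gene in all: 0 without AdCtrl+TGF replicate 1, 2 or 3, and 1 without AdSirt4+TGF replicate 2 or 3. The median log2 fold change of the 10 members was -0.092 with all samples, where that of all tested genes was 0.021, and 0.055 without the library, where that of all genes was -0.0028. No member passed an adjusted p of 0.05 in any of the 20 alternative fits. The lowest adjusted p of a member was 0.0563, for KAT6B in DESeq2 without AdSirt4+TGF replicate 1. For the gene lists below, the same shares of all genes apply. These are 6.71% called without that library and, with all samples, 19.4% with groups that did not overlap. Most genes named from the lists had the smallest p of their list, a choice that itself favours groups without overlap.

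**Figure D2:**
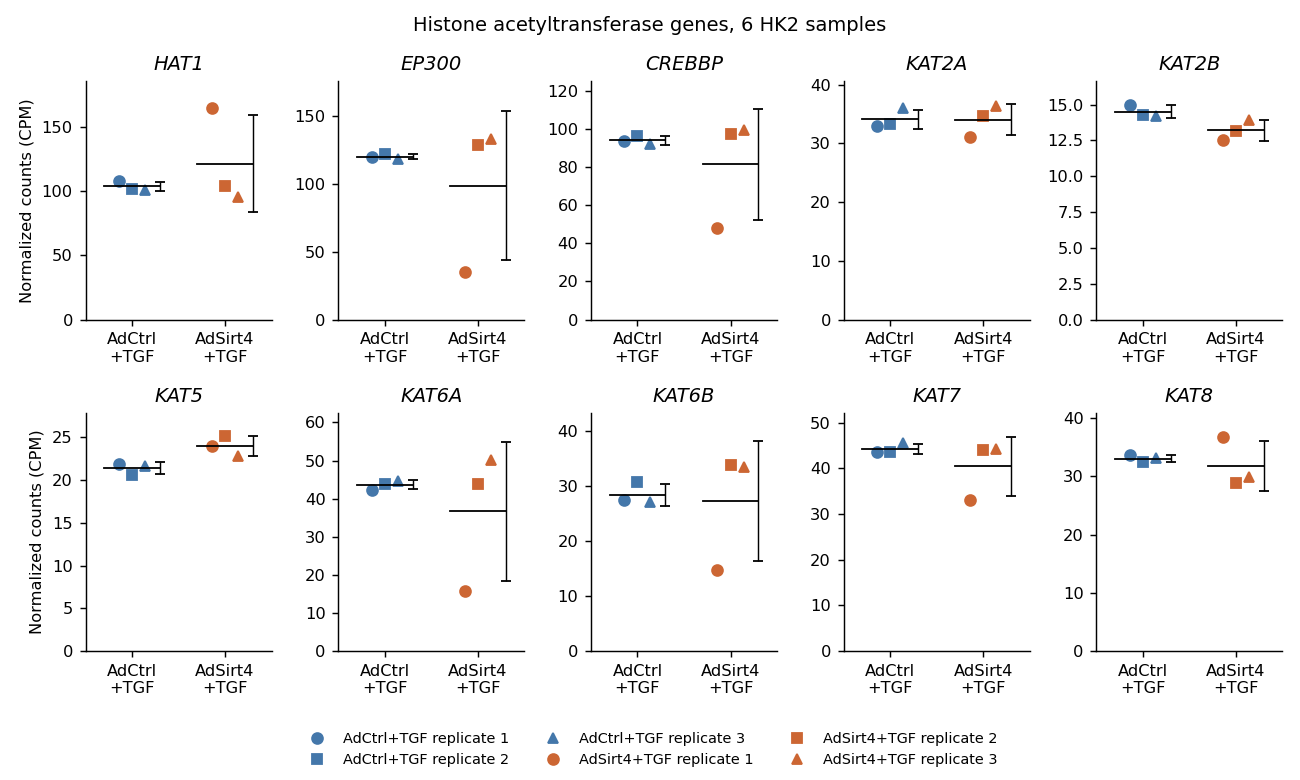
Normalized counts (CPM, axes from 0) of each acetyltransferase gene in the 3 AdCtrl+TGF samples (blue) and the 3 AdSirt4+TGF samples (orange), with a horizontal line for the group mean and a bar for ± 1 SD. The 3 AdCtrl+TGF symbols lie close together in every panel, while AdSirt4+TGF replicate 1 (circle) is far below the others for EP300 (35.2 CPM) and above them for HAT1 (165 CPM).

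HAT1 was at 108, 102 and 101 CPM in the AdCtrl+TGF samples and 165, 104 and 95.3 CPM in the AdSirt4+TGF samples. One AdSirt4+TGF sample was high and the other two lay close to the controls, so the groups overlapped. The group values were 104 ± 3.53 and 121 ± 37.7 CPM (mean ± SD, n = 3 each), and the log2 fold change was 0.23 (95% interval -0.26 to 0.72, adjusted p = 0.773). By a two-sided exact permutation test over the samples, HAT1 had p = 0.8, where 3 against 3 samples can go no lower than 0.1. Without AdSirt4+TGF replicate 1 its log2 fold change was -0.059 (95% interval -0.19 to 0.069, adjusted p = 0.576), with the sign turned. On the interval without that library, HAT1 was between 0.878 and 1.05 times its AdCtrl+TGF level. HAT1 overlaps LOC124905590, which was at 0.117 to 0.616 CPM.

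The partners of HAT1 were likewise not called. RBBP4 was at 321, 319 and 324 CPM in the AdCtrl+TGF samples and 368, 339 and 337 CPM in the AdSirt4+TGF samples, and its log2 fold change was 0.12 with all samples (adjusted p = 0.765) and 0.069 without AdSirt4+TGF replicate 1 (adjusted p = 0.408). RBBP7 was at 406, 370.5 and 363 CPM in the AdCtrl+TGF samples and 494, 374 and 352 CPM in the AdSirt4+TGF samples, and its log2 fold change was 0.099 with all samples (adjusted p = 0.846) and -0.070 without AdSirt4+TGF replicate 1 (adjusted p = 0.525). RBBP7 was high in the same AdSirt4+TGF sample as HAT1, while RBBP4 was higher in all AdSirt4+TGF samples than in the controls. Of all genes, 19.4% had groups that did not overlap. In the list of 12 HAT1 partners and H3-H4 chaperones, 0 genes were called with all samples and 0 without AdSirt4+TGF replicate 1. The 3 genes of smallest p were CHAF1A, the large subunit of chromatin assembly factor 1, NASP, a histone H3-H4 chaperone, and CABIN1, of the HIRA chaperone complex. CHAF1A was at 87.9, 97.8 and 85.0 CPM in the AdCtrl+TGF samples and 98.1, 103 and 104 CPM in the AdSirt4+TGF samples, with a log2 fold change of 0.17 with all samples (adjusted p = 0.702) and 0.19 without AdSirt4+TGF replicate 1 (adjusted p = 0.0920). For NASP the log2 fold change was 0.24 with all samples (adjusted p = 0.730) and 0.073 without AdSirt4+TGF replicate 1 (adjusted p = 0.528). For CABIN1 it was -0.36 with all samples (adjusted p = 0.741) and -0.10 without AdSirt4+TGF replicate 1 (adjusted p = 0.281). The median log2 fold change of the list was 0.013 with all samples and -0.011 without AdSirt4+TGF replicate 1.

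The genes whose pattern over the 6 samples was most like that of HAT1 were MRPL17, a mitochondrial ribosomal protein, TP53I13, and H3-3B, which encodes the histone variant H3.3. Likeness was the root mean square difference of log2 CPM centred on the mean over samples, among 10357 genes with a mean of at least 10 CPM, and it was 0.0077 for MRPL17, 0.018 for TP53I13 and 0.019 for H3-3B. MRPL17 was at 44.4, 41.9 and 41.6 CPM in AdCtrl+TGF and 67.8, 43.0 and 38.7 CPM in AdSirt4+TGF. The pattern they share is a high value in AdSirt4+TGF replicate 1. Among the other acetyltransferase genes the nearest to HAT1 was KAT8, in place 3413, and EP300 was in place 10336.

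EP300 was at 120.0, 122 and 119 CPM in the AdCtrl+TGF samples and 35.2, 129 and 133 CPM in the AdSirt4+TGF samples. The AdCtrl+TGF samples spanned 119 to 122 CPM, AdSirt4+TGF replicates 2 and 3 were above them, and AdSirt4+TGF replicate 1 was 3.72-fold below the mean of the other two. The log2 fold change was -0.28 (95% interval -1.32 to 0.76, adjusted p = 0.849), and 0.12 (95% interval 0.0062 to 0.23, adjusted p = 0.184) without that library. CREBBP was at 93.9, 96.6 and 92.0 CPM in the AdCtrl+TGF samples and 48.0, 97.3 and 99.4 CPM in the AdSirt4+TGF samples. Its low sample was the same, 2.05-fold below the other two, and its log2 fold change was -0.21 (95% interval -0.83 to 0.41, adjusted p = 0.817), or 0.059 (95% interval -0.052 to 0.17, adjusted p = 0.515) without AdSirt4+TGF replicate 1. For both genes the groups overlapped with all samples, and AdSirt4+TGF replicates 2 and 3 were each above all 3 controls.

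Since the genes of a paralog pair can be compared within a sample, the ratio of their FPKM was taken in each. The EP300 to CREBBP ratio was 1.56, 1.54 and 1.56 in the AdCtrl+TGF samples and 0.901, 1.60 and 1.63 in the AdSirt4+TGF samples. The controls lay within 1.54 to 1.56, one AdSirt4+TGF sample was far below and the other two slightly above. Between samples of the same replicate number, the AdSirt4+TGF ratio was lower for replicate 1 and higher for replicates 2 and 3. The exact sign-flip permutation test over these pairs did not reach its smallest possible p. The mean difference in the log2 ratio was -0.23 (two-sided exact permutation test, p = 1, n = 3 each) and 0.054 without AdSirt4+TGF replicate 1 (exact permutation p = 0.1, the smallest that 3 against 2 samples can give). Of the 2 genes, EP300 is the shorter by the implied length (10.02 against 12.2 kb), and it was the further down in that library. The part of length in this ratio was not tested.

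Of the 14 listed partners of CBP and p300, 0 were called with all samples, and 3 without AdSirt4+TGF replicate 1, 2 higher and 1 lower. HIF1A, the oxygen-regulated factor that recruits p300, was at 912, 838 and 941 CPM in the AdCtrl+TGF samples and 620.0, 734 and 783 CPM in the AdSirt4+TGF samples, all AdSirt4+TGF samples being below the controls. Its log2 fold change was -0.33 with all samples (adjusted p = 0.612) and -0.25 without AdSirt4+TGF replicate 1 (adjusted p = 0.0366). The 2 higher genes were CRTC1, a CREB co-activator, and RELA, an NF-κB subunit, both named after their values were seen. CRTC1 had a log2 fold change of 0.22 with all samples (adjusted p = 0.757) and 0.38 without AdSirt4+TGF replicate 1 (adjusted p = 0.0214), and RELA one of 0.10 with all samples (adjusted p = 0.810) and 0.22 without AdSirt4+TGF replicate 1 (adjusted p = 0.0379). In both genes AdSirt4+TGF replicate 1 was below all controls, so that the groups overlapped with all samples. MYB, a haematopoietic factor that binds the KIX domain, was at 1.51 to 2.90 CPM, with a log2 fold change of -0.43 with all samples (adjusted p = 0.678) and -0.54 without AdSirt4+TGF replicate 1 (adjusted p = 0.128). CITED2, a CBP and p300 binding regulator, had a log2 fold change of 0.23 with all samples (adjusted p = 0.750) and 0.054 without AdSirt4+TGF replicate 1 (adjusted p = 0.822). Over the whole list the median log2 fold change was -0.0068 with all samples and 0.0088 without AdSirt4+TGF replicate 1.

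KAT2A was at 33.1, 33.3 and 36.0 CPM in the AdCtrl+TGF samples and 31.2, 34.6 and 36.3 CPM in the AdSirt4+TGF samples. All 6 samples lay between 31.2 and 36.3 CPM and the groups overlapped. The log2 fold change was -0.0025 (95% interval -0.24 to 0.23, adjusted p = 0.993), and 0.052 (95% interval -0.091 to 0.19, adjusted p = 0.673) without AdSirt4+TGF replicate 1. KAT2B was at 15.0, 14.3 and 14.2 CPM in the AdCtrl+TGF samples and 12.5, 13.1 and 13.95 CPM in the AdSirt4+TGF samples. In CPM all AdSirt4+TGF samples were below all controls, by a small margin, and the exact permutation p was 0.1 (two-sided), the smallest that 3 against 3 samples allow. In FPKM the groups overlapped, at 2.99, 2.77 and 2.95 FPKM in the AdCtrl+TGF samples and 2.30, 2.63 and 2.84 FPKM in the AdSirt4+TGF samples. The log2 fold change of KAT2B was -0.14 (95% interval -0.36 to 0.090, adjusted p = 0.741), and -0.10 (95% interval -0.27 to 0.065, adjusted p = 0.439) without the library. The KAT2A to KAT2B ratio of FPKM was 3.27, 3.42 and 3.73 in the AdCtrl+TGF samples and 3.63, 3.86 and 3.84 in the AdSirt4+TGF samples. The mean log2 ratio was 0.12 higher in AdSirt4+TGF (exact permutation p = 0.2), or 0.15 without AdSirt4+TGF replicate 1 (exact permutation p = 0.2). The ratio was higher in the AdSirt4+TGF sample of all 3 same-numbered pairs, with an exact sign-flip permutation p over the pairs of 0.25, the smallest that 3 pairs can give.

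Among 27 SAGA and ATAC subunits, 0 were called with all samples and 2 without AdSirt4+TGF replicate 1. WDR5, a WD-repeat scaffold of ATAC and of KAT8's NSL complex, was at 93.7, 91.6 and 88.9 CPM in the AdCtrl+TGF samples and 122, 105 and 108 CPM in the AdSirt4+TGF samples, with every AdSirt4+TGF sample above the controls. Its log2 fold change was 0.29 with all samples (adjusted p = 0.566) and 0.22 without AdSirt4+TGF replicate 1 (adjusted p = 0.0304). SF3B5, shared by SAGA and the U2 snRNP and named after its values were seen, was at 55.8, 52.4 and 54.7 CPM in the AdCtrl+TGF samples and 93.4, 47.9 and 46.8 CPM in the AdSirt4+TGF samples. AdSirt4+TGF replicates 2 and 3 were below the controls and replicate 1 far above them, and the log2 fold change was 0.21 with all samples (adjusted p = 0.823) and -0.20 without AdSirt4+TGF replicate 1 (adjusted p = 0.0473). SUPT20H of SAGA had a log2 fold change of -0.28 with all samples (adjusted p = 0.717) and -0.12 without AdSirt4+TGF replicate 1 (adjusted p = 0.241), and YEATS2 of ATAC had a log2 fold change of -0.32 with all samples (adjusted p = 0.732) and -0.10 without AdSirt4+TGF replicate 1 (adjusted p = 0.256). The list had a median log2 fold change of 0.051 with all samples and -0.053 without AdSirt4+TGF replicate 1.

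On the CPM scale KAT5 was the one acetyltransferase gene that was higher in every AdSirt4+TGF sample. It was at 21.8, 20.6 and 21.7 CPM in the AdCtrl+TGF samples and 23.9, 25.1 and 22.8 CPM in the AdSirt4+TGF samples. The groups did not overlap in CPM, and AdSirt4+TGF replicate 1 lay between the other two of its group. In FPKM the values were 9.93, 9.18 and 10.3 FPKM in the AdCtrl+TGF samples and 10.1, 11.4 and 10.5 FPKM in the AdSirt4+TGF samples, where AdSirt4+TGF replicate 1 was the lowest of its group and below AdCtrl+TGF replicate 3. The log2 fold change was 0.17 (95% interval -0.048 to 0.38, adjusted p = 0.702), with an exact permutation p of 0.1, and 0.16 (95% interval 0.0024 to 0.32, adjusted p = 0.200) without AdSirt4+TGF replicate 1. The range over the 20 alternatives was 0.11 to 0.20, with adjusted p between 0.0888 and 0.971. KAT5 overlaps RNASEH2C, which was at 22.4 to 41.2 CPM, and whether the counting used strand is not given in the sources used here. RNASEH2C was highest in AdSirt4+TGF replicate 1, the library that stood apart. Whether reads of either gene were counted for the other was not tested.

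Of 17 NuA4 subunits, 0 were called with all samples and 1 without AdSirt4+TGF replicate 1. This was ING3, the PHD-finger subunit that reads methylated H3, at 10.2, 9.49 and 9.40 CPM in the AdCtrl+TGF samples and 14.9, 12.7 and 11.8 CPM in the AdSirt4+TGF samples. All AdSirt4+TGF samples were above the controls, and the log2 fold change was 0.44 with all samples (adjusted p = 0.500) and 0.33 without AdSirt4+TGF replicate 1 (adjusted p = 0.0443). YEATS4 was also above the controls in all 3 AdSirt4+TGF samples, with a log2 fold change of 0.37 with all samples (adjusted p = 0.690) and 0.11 without AdSirt4+TGF replicate 1 (adjusted p = 0.313). ACTL6A, an actin-related subunit, had a log2 fold change of 0.13 with all samples (adjusted p = 0.749) and 0.060 without AdSirt4+TGF replicate 1 (adjusted p = 0.541). The listed genes had a median log2 fold change of 0.030 with all samples and -0.017 without AdSirt4+TGF replicate 1.

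KAT6A, on chromosome 8, was at 42.4, 43.9 and 44.6 CPM in the AdCtrl+TGF samples and 15.8, 43.9 and 50.2 CPM in the AdSirt4+TGF samples. KAT6B was at 27.4, 30.7 and 27.1 CPM in the AdCtrl+TGF samples and 14.6, 33.8 and 33.3 CPM in the AdSirt4+TGF samples. Both were low in AdSirt4+TGF replicate 1, 2.97-fold and 2.29-fold below the mean of the other two. KAT6A had a log2 fold change of -0.25 (95% interval -1.14 to 0.65, adjusted p = 0.845), and of 0.10 (95% interval -0.040 to 0.25, adjusted p = 0.357) without that library. KAT6B had a log2 fold change of -0.055 (95% interval -0.76 to 0.65, adjusted p = 0.954), and 0.24 (95% interval 0.081 to 0.39, adjusted p = 0.0724) without it. The 2 remaining AdSirt4+TGF samples of KAT6B were above all controls, and its adjusted p without the library was the lowest among the members. The KAT6A to KAT6B ratio of FPKM was 1.33, 1.23 and 1.45 in the AdCtrl+TGF samples and 0.980, 1.13 and 1.31 in the AdSirt4+TGF samples. The mean log2 ratio differed from the controls by -0.24 (exact permutation p = 0.2), and by -0.14 without AdSirt4+TGF replicate 1 (exact permutation p = 0.4), and the groups overlapped in both. In all 3 same-numbered pairs the ratio was lower in the AdSirt4+TGF sample (exact sign-flip permutation p = 0.25 over the pairs, again the smallest possible).

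KAT7 was at 43.5, 43.6 and 45.5 CPM in the AdCtrl+TGF samples and 33.0, 43.9 and 44.2 CPM in the AdSirt4+TGF samples. The other 5 samples lay between 43.5 and 45.5 CPM and AdSirt4+TGF replicate 1 was below them. The log2 fold change was -0.13 (95% interval -0.44 to 0.18, adjusted p = 0.787), and -0.0090 (95% interval -0.13 to 0.11, adjusted p = 0.943) without that library, an interval of 0.914 to 1.08 in fold. KAT7 overlaps FAM117A, which was at 5.51 to 7.70 CPM. In the list of 9 MOZ, MORF and HBO1 subunits 0 genes were called with or without the library. ING5 had a log2 fold change of 0.24 with all samples (adjusted p = 0.701) and 0.094 without AdSirt4+TGF replicate 1 (adjusted p = 0.323), and BRD1 had a log2 fold change of 0.081 with all samples (adjusted p = 0.787) and 0.091 without AdSirt4+TGF replicate 1 (adjusted p = 0.281). JADE3 had a log2 fold change of -0.18 with all samples (adjusted p = 0.810) and 0.038 without AdSirt4+TGF replicate 1 (adjusted p = 0.744). Across the list, log2 fold changes had a median of 0.057 with all samples and 0.091 without AdSirt4+TGF replicate 1, above 0 for 7 of the 9 genes in both.

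KAT8 was at 33.7, 32.4 and 33.1 CPM in the AdCtrl+TGF samples and 36.8, 28.9 and 29.8 CPM in the AdSirt4+TGF samples. As in HAT1, the high sample in CPM was AdSirt4+TGF replicate 1, and here the other two were below all controls. In FPKM, AdSirt4+TGF replicate 1 was at 19.2, within the 17.6 to 19.7 FPKM of the controls, and the other two were again below them. The log2 fold change was -0.056 (95% interval -0.33 to 0.22, adjusted p = 0.881), and -0.18 (95% interval -0.31 to -0.040, adjusted p = 0.111) without the library. Of 11 MSL and NSL subunits 0 were called with all samples, and 1 without AdSirt4+TGF replicate 1, WDR5, given above. OGT, the O-GlcNAc transferase, had a log2 fold change of -0.24 with all samples (adjusted p = 0.741) and -0.088 without AdSirt4+TGF replicate 1 (adjusted p = 0.512), and MSL2 had a log2 fold change of -0.10 with all samples (adjusted p = 0.780) and -0.17 without AdSirt4+TGF replicate 1 (adjusted p = 0.09996). The median log2 difference over the list was -0.0036 with all samples and 0.00046 without AdSirt4+TGF replicate 1.

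In CPM, AdSirt4+TGF replicate 1 was below the 5 other samples for 7 members, against 36.6% of all genes. It was above them for 2, HAT1 and KAT8, against 36.6%, though for KAT8 not in FPKM. It was over 2-fold below the mean of AdSirt4+TGF replicates 2 and 3 for 4 members, EP300, KAT6A, KAT6B and CREBBP, against 9.36% of all genes. The lengths implied by the 2 tables were 1.78 kb for KAT8, 1.88 kb for HAT1, 2.22 kb for KAT5, 3.42 kb for KAT2A and 5.04 kb for KAT2B. They were 9.03 kb for KAT6B, 10.02 kb for EP300, 10.4 kb for KAT6A, 10.9 kb for KAT7 and 12.2 kb for CREBBP.

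The log2 deviation of the library was 0.72 for HAT1 and 0.32 for KAT8, where genes of their length group had a median of 0.48. It was -1.89 for EP300, -1.57 for KAT6A, -1.20 for KAT6B, -1.04 for CREBBP and -0.42 for KAT7, all in the longest group, whose median was -0.74. Between them lay KAT5 at -0.0014, KAT2B at -0.11 and KAT2A at -0.19, where the medians of their length groups were 0.31, -0.16 and 0.062. From the median of this longest group EP300 differed by -1.15, KAT6A by -0.83, KAT6B by -0.45, CREBBP by -0.29 and KAT7 by 0.33. With each library's trend on length removed, 12 genes were called in all and 0 members, and the median of the members was -0.050. The part of length in the members' values was not tested beyond these fits.

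**Figure D3:**
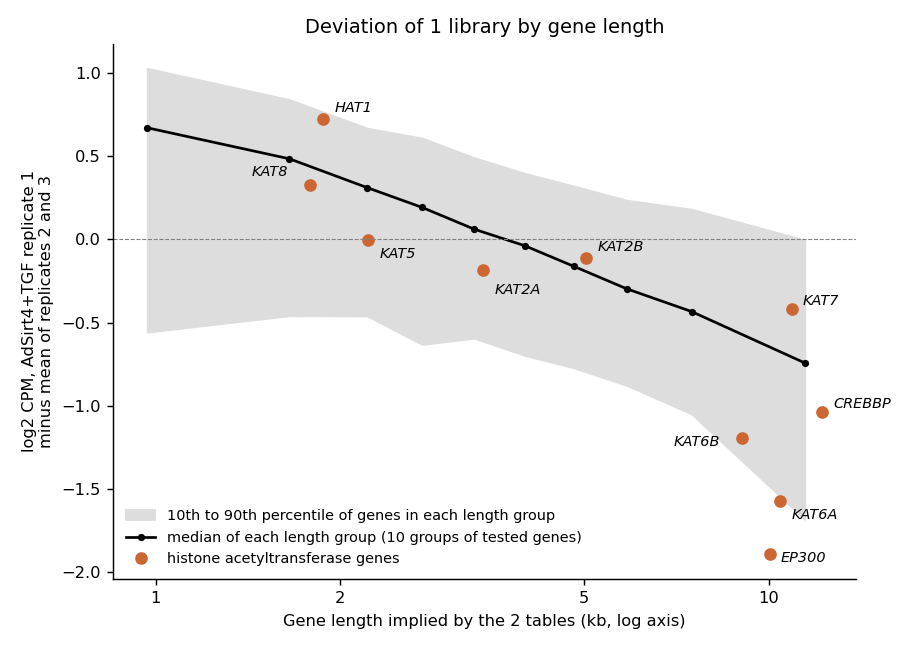
Log2 CPM of AdSirt4+TGF replicate 1 minus the mean of AdSirt4+TGF replicates 2 and 3, against gene length (kb, log axis): the black line joins the medians of 10 length groups of tested genes, the grey band spans their 10th to 90th percentile, and orange points are the acetyltransferase genes. The median falls from 0.67 to -0.74. EP300 at -1.89 lies below the band, KAT6A at -1.57 lies near its lower edge and HAT1 at 0.72 lies near its upper edge.

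Genes that supply acetyl-CoA or remove acetyl groups were also listed. Of 11 acetyl-CoA supply genes, 0 were called with all samples and 2 without AdSirt4+TGF replicate 1, both lower. In the latter fit 6.71% of all genes were called. CRAT, carnitine acetyltransferase, was at 37.7, 36.9 and 36.8 CPM in the AdCtrl+TGF samples and 26.2, 28.6 and 28.9 CPM in the AdSirt4+TGF samples, with all AdSirt4+TGF samples below all controls. Its log2 fold change was -0.41 with all samples (adjusted p = 0.494) and -0.37 without AdSirt4+TGF replicate 1 (adjusted p = 0.00769). ACSS2, the nuclear and cytosolic acetyl-CoA synthetase, was at 83.8, 82.8 and 86.6 CPM in the AdCtrl+TGF samples and 67.7, 70.5 and 67.2 CPM in the AdSirt4+TGF samples, also without overlap, with a log2 fold change of -0.30 with all samples (adjusted p = 0.496) and -0.30 without AdSirt4+TGF replicate 1 (adjusted p = 0.00914). AdSirt4+TGF replicate 1 differed from the mean of the others of its group by -0.13 for CRAT and -0.023 for ACSS2 on the log2 scale. ACLY, ATP citrate lyase, had a log2 fold change of -0.26 with all samples (adjusted p = 0.697) and -0.14 without AdSirt4+TGF replicate 1 (adjusted p = 0.119). With all samples 5 of the 11 genes were below 0 and 6 above, with a median log2 fold change of 0.00063. Without that library all 11 were below 0, with a median of -0.13. The median over all genes in that fit was -0.0028, so more of all genes lay below 0 than above it. The list was chosen with earlier results of these data known, and a common direction of its genes was not tested.

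Of 17 other lysine deacetylases, 0 were called with all samples and 1 without AdSirt4+TGF replicate 1, HDAC11, named after its values were seen. HDAC11 was at 26.3, 22.6 and 26.3 CPM in the AdCtrl+TGF samples and 26.8, 20.7 and 19.7 CPM in the AdSirt4+TGF samples, and its log2 fold change was -0.17 with all samples (adjusted p = 0.769) and -0.32 without AdSirt4+TGF replicate 1 (adjusted p = 0.0421). The 3 of smallest p with all samples were HDAC7, HDAC5 and HDAC2. HDAC7, a class IIa deacetylase, had a log2 fold change of 0.21 with all samples (adjusted p = 0.630) and 0.19 without AdSirt4+TGF replicate 1 (adjusted p = 0.0791). HDAC5, of the same class, had a log2 fold change of -0.14 with all samples (adjusted p = 0.718) and -0.11 without AdSirt4+TGF replicate 1 (adjusted p = 0.242), and HDAC2, of class I, had a log2 fold change of 0.22 with all samples (adjusted p = 0.733) and 0.048 without AdSirt4+TGF replicate 1 (adjusted p = 0.632). The median log2 fold change of the list was 0.0095 with all samples and -0.043 without AdSirt4+TGF replicate 1.

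Among 13 other acetyltransferases, ATF2, a DNA-binding factor, was the one called without AdSirt4+TGF replicate 1, and 0 were called with all samples. ATF2 was at 104, 104 and 105 CPM in the AdCtrl+TGF samples and 78.8, 92.9 and 89.1 CPM in the AdSirt4+TGF samples, all AdSirt4+TGF samples below the controls, with a log2 fold change of -0.26 with all samples (adjusted p = 0.607) and -0.20 without AdSirt4+TGF replicate 1 (adjusted p = 0.0399). NAA50, an N-terminal acetyltransferase, had a log2 fold change of 0.22 with all samples (adjusted p = 0.633) and 0.16 without AdSirt4+TGF replicate 1 (adjusted p = 0.0728), and TAF1 of TFIID had a log2 fold change of -0.25 with all samples (adjusted p = 0.734) and -0.088 without AdSirt4+TGF replicate 1 (adjusted p = 0.435). Over the whole list the median log2 fold change was -0.039 with all samples and 0.0077 without AdSirt4+TGF replicate 1. Of 19 acetyl-lysine readers 0 were called in either fit. ATAD2 had a log2 fold change of -0.14 with all samples (adjusted p = 0.741) and -0.093 without AdSirt4+TGF replicate 1 (adjusted p = 0.314), and BAZ2A had a log2 fold change of -0.36 with all samples (adjusted p = 0.767) and -0.057 without AdSirt4+TGF replicate 1 (adjusted p = 0.568). CECR2, at 0.136 to 0.406 CPM, had a log2 fold change of 0.57 with all samples (adjusted p = 0.750) and 0.77 without AdSirt4+TGF replicate 1 (adjusted p = 0.287). The list had a median log2 fold change of -0.074 with all samples and 0.038 without AdSirt4+TGF replicate 1.

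Over all these lists, 147 genes were tested. With all samples 0 were called and 6 passed an unadjusted p of 0.05, where 7.93% of all genes did. Without AdSirt4+TGF replicate 1, 10 were called (6.80%, against 6.71% of all genes), 4 higher and 6 lower. U2AF2, the splicing factor whose acetylation the study followed, was at 211, 214 and 183 CPM in the AdCtrl+TGF samples and 208, 221 and 199.9 CPM in the AdSirt4+TGF samples, with groups that overlapped. Its log2 fold change was 0.047 (95% interval -0.20 to 0.30, adjusted p = 0.888), and 0.049 (95% interval -0.12 to 0.21, adjusted p = 0.738) without that library.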

How the data were processed

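RNA-seq of 6 HK2 samples, 3 per group, was analysed from 2 tables. The authors deposited whole-number counts per gene without normalization, and a table of the same genes whose unit is not named and which was read as FPKM from its values, since counts divided by FPKM gave nearly the same length in all samples. The submitters' processing notes name fastp 0.21.0, HISAT2 2.1.0, StringTie 2.1.5, DESeq2 1.30.1 and hg38, without their roles. Libraries were made from poly-T selected RNA; strand is not stated.

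Counts were tested with edgeR 4.0.16 in R 4.3.3 (filterByExpr with a minimum count of 10, TMM, robust quasi-likelihood test, Benjamini-Hochberg over all genes tested, threshold 0.05). CPM are scaled by TMM. Single values and ratios were compared with two-sided exact permutation tests over samples. Alternatives used DESeq2 1.42.0, limma 3.58.1 on log2(FPKM + 1) or log2(FPKM + 0.1), limma voom with sample quality weights, other filters and scalings, a length-trend correction, the replicate block, and each library left out; 2 fits without AdSirt4+TGF replicate 1 were added after the data were seen. Figures were drawn with matplotlib 3.10.9. The procedure was tested on simulated counts with the same dispersion for all genes. Pass limits were set for edgeR, edgeR with the replicate block, DESeq2 and voom, on counts without a length trend. No limit was set for fits with a length trend in a library.

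Depth was 41537353 to 85684748 counts, so a count of 0 allows up to 0.0348 to 0.0770 CPM (3 counts), counting error only. Samples with the same replicate number deviated together: the Pearson correlation across genes of their deviations from the group means was 0.178, 0.159 and 0.176, against -0.188 to 0.030 for the other pairs. Deviations from a group mean sum to 0 within the group, so part of this contrast is built in. The numbers were taken to pair the samples, from the data and not from the labels, only in the replicate-block fits and the sign-flip tests. The reported fit, its intervals and the permutation tests over samples do not use the pairs.

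The members and gene lists were chosen with earlier results of these data known. The genes named are the members, SIRT4, U2AF2, RBBP4 and RBBP7, all genes called in a list with all samples and the 3 of smallest p in each list, and the 3 genes most like HAT1; others are marked as named after their values were seen. Some genes that belong in these lists are not reported here, and the counts and medians leave them out.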

Additional observations from a re-analysis of the deposited data

How the results depend on the processing

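The count of members called was 0 in all 20 alternatives. Of 200 log2 fold changes of single members under the alternatives, 171 kept their sign and 29 turned it, 23 of these in fits without AdSirt4+TGF replicate 1 or with sample weights; no value on either side passed the threshold. KAT2B and KAT5 kept their sign in all 20. Without AdSirt4+TGF replicate 1 the turned values were -0.059 for HAT1, 0.12 for EP300, 0.059 for CREBBP, 0.052 for KAT2A, 0.10 for KAT6A and 0.24 for KAT6B. DESeq2 without that library gave -0.057, 0.12, 0.061, 0.054, 0.11 and 0.24 for the same genes. The length-trend fit without it gave -0.0040 for HAT1, 0.066 for EP300, 0.065 for KAT2A, 0.050 for KAT6A and 0.20 for KAT6B. Limma voom with sample quality weights gave -0.020 for HAT1, 0.071 for EP300, 0.034 for CREBBP, 0.047 for KAT2A, 0.044 for KAT6A and 0.23 for KAT6B. With the length trend removed, KAT6B was at 0.010 and KAT7 at 0.011, or 0.0076 for KAT7 with the replicate block as well. KAT6B turned too without AdCtrl+TGF replicate 2 (0.0024), KAT2A without AdCtrl+TGF replicate 3 (0.037) and KAT8 without AdSirt4+TGF replicate 2 (0.016). Leaving out each library in turn gave HAT1 -0.059 to 0.38, EP300 -0.55 to 0.12, CREBBP -0.37 to 0.059, KAT2A -0.052 to 0.052, KAT6A -0.54 to 0.10, KAT6B -0.23 to 0.24 and KAT8 -0.18 to 0.016, and an EP300 to CREBBP log2 ratio between -0.37 and 0.054.

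Over all genes the count called was 2 in the reported fit, 119 in DESeq2, 5 with all genes of at least 1 count, 4 with at least 10 counts in every sample, 12 with the length trend removed, 1446 with sample weights, 0 on log2(FPKM + 1), 5 there when only genes with mean FPKM 1 or more were kept, 1 on log2(FPKM + 0.1), 0 to 1227 with one library left out, 1464 in DESeq2 and 1381 in the length-trend fit without AdSirt4+TGF replicate 1. With the replicate block it was 1, 6 with the length trend removed as well, and 0 on log2(FPKM + 1). The block changed no call of a member. The log2 fold change with the block was -0.49 for EP300, -0.40 for KAT6A and -0.14 for KAT6B. In the reported fit, which has no block, these were -0.28, -0.25 and -0.055, and the other members moved less. Apart from the fits without 1 library, the causes of these shifts were not tested.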
